A study of Mus musculus with 7 samples.

Results

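The genes described here encode the nuclear subunits of the mitochondrial respiratory chain, complexes I to V, with cytochrome c and a few factors that share their names. They were found by the gene name on the array: names that begin with Nduf, Uqcr, Cox4 to Cox8 or Atp5, Sdha to Sdhd, and Cyc1 and Cycs. The rule found 138 of 55681 probes and 92 of 24048 named genes. One of the 92, Cox4nb, is an older name of Emc8 and is no respiratory chain gene, which left 91. Of these, 87 passed a background filter (3 or more of the 7 arrays well above background) and were tested among 14848 genes. The 4 that did not pass were Cox8b, Cox8c, Cox7b2 and Ndufa4l2.

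The samples were mouse CD8 T lymphocytes from lymph node, labelled OT-1het, Rag-/-. OT-1 is a T cell receptor transgene specific for the ovalbumin peptide SIINFEKL, and without Rag a lymphocyte cannot assemble a receptor of its own. The 3 Lck-/- samples, also called OFF, came from mice whose knocked-in inducible Lck had been switched off by taking doxycycline out of the diet for 7 days. Lck is the kinase that phosphorylates the receptor's signalling chains. The 4 WT samples share the receptor transgene and the Rag deficiency. No doxycycline feeding is stated for them, so a difference in diet or construct and the absence of Lck cannot be told apart. In both groups the lymphocytes had been cultured for 24 h with 100 nM SIINFEKL, and each sample was read on 1 array. The comparison asks how the absence of Lck during this activation bears on the transcripts of the respiratory chain. The series calls the samples biological replicates, and no label says whether each came from its own animal.

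Values are log2 signal relative to the 75th percentile of the same array, so 0 is that percentile and 1 unit is a 2-fold change. A level of one probe is not set against that of another, since probes differ in brightness for reasons unrelated to the amount of RNA. The arrays had between 46.6% and 61.1% of spots well above background and no saturated spot. The Lck probe itself went against 2 labels. It read 8.02, 6.21 and 6.17 on the arrays labelled Lck-/- 1, 2 and 3, against 7.44, 7.67, 7.36 and 6.04 on those labelled WT 1 to 4. The array labelled Lck-/- 1 was thus the highest and the array labelled WT 4 the lowest, and whether the construct carries the part of the transcript that this probe reads is not stated. Over the genes with 7 values, Lck-/- 1 correlated best with WT 3 (r = 0.990) and WT 4 best with Lck-/- 2 (r = 0.991), in a range from 0.979 to 0.991 over all pairs. Whether samples were exchanged was not tested, and an exchange would change what each Lck-/- minus WT value compares. For this reason several main results are also given without these 2 arrays, though not the counts of intervals.

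The respiratory chain passes electrons from NADH, through complex I, and from succinate, through complex II, to ubiquinone, then through complex III and cytochrome c to complex IV, which reduces oxygen. Complexes I, III and IV pump protons out of the matrix, and complex V, the ATP synthase, lets them back in to make ATP. Naive T cells have few and small mitochondria, and after antigen recognition they enlarge this pool before they divide. A further set of core subunits is encoded in mitochondrial DNA, and the gene names used here do not take those in.

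The probes are 60 bases long, and those printed here carry the points made below: paired probes for 3 genes of complexes I, II and III whose readings on 1 array disagreed, and the common and muscle or lung isoforms of 2 subunits of complex IV. Sequences are those of the deposited files, 5′ to 3′, with mm9 coordinates and strand. Capitals mark the 53 bases that 2 of the Uqcr10 probes share, and nothing is in capitals elsewhere. Which exon each probe falls in was not analysed here.
Ndufa5 first probe, chr6:24468666-24468725, minus strand: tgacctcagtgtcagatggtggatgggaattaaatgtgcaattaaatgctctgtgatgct
Ndufa5 second probe, chr6:24472660-24472719, minus strand: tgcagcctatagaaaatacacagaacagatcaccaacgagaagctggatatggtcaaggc
Sdhb first probe, chr4:140535052-140535108, plus strand: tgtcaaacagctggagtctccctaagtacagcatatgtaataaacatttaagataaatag
Sdhb second probe, chr4:140529606-140529665, plus strand: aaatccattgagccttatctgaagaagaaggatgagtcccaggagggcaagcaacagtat
Uqcr10 first probe, chr11:4601979-4602038, minus strand: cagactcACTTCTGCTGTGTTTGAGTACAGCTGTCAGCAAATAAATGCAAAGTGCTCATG
Uqcr10 second probe, chr11:4601972-4602031, minus strand: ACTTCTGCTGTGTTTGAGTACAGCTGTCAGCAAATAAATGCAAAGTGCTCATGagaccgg
Uqcr10 upstream probe, chr11:4604252-4604311, minus strand: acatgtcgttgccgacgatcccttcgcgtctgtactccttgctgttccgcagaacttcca
Cox4i1, common, chr8:123197924-123197983, plus strand: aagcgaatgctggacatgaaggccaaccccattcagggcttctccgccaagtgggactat
Cox4i2, lung, chr2:152590711-152590770, plus strand: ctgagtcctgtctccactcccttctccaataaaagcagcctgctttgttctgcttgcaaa
Cox6a1, common, chr5:115795726-115795785, minus strand: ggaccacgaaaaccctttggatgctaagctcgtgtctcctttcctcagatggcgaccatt
Cox6a2, heart and muscle, chr7:135349160-135349219, minus strand: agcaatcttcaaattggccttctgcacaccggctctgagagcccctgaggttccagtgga

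No difference between the Lck-/- and WT arrays passed the test for any of the 87 respiratory chain genes. None had an adjusted p below 0.05 in limma, and neither had any of the 14848 genes tested (0%). At an unadjusted p of 0.05 the chain counted 0 of 87, against 1051 of all genes tested, which is 7.08%. The differences, Lck-/- minus WT, were positive for 56 genes and negative for 31, with a median of 0.05, beside 0.04 over all genes tested. The share of positive differences was 64.4% in the chain, beside 57.6% of all genes tested, 8550 of 14848. The signs followed the scaling: 36 of 87 were positive with quantile normalization, 46 with the authors' deposited values and 11 with median centring, which gave the chain a median of -0.15 and all genes one of -0.16. A sign named below is that of the 75th percentile scaling. The groups did not overlap for 1 chain gene of the 83 with a value on every array, Ndufa6, which was higher. Over all genes with 7 values, 7.01% did not overlap in either direction and 4.98% did not overlap and were higher in Lck-/-.

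With all 7 arrays under their labels and with the percentile scaling, the intervals bounded the differences. For 56 of the 87 genes, which is 64.4%, the 95% interval of the difference lay wholly within 0.5 log2 units on either side of 0, and for 85 of 87 it lay within 1 unit, so that a 2-fold difference lay outside the interval for each of those 85. Ndufv1 and Cox4i2 were the exceptions, and both had 1 array far from the rest. Counts of such intervals are not given for the other scalings or without the arrays labelled Lck-/- 1 and WT 4. Without those arrays Ndufaf3 differed by 0.60 ± 0.22 (SE) and Cox6a2 by -0.62 ± 0.30 (SE). The bound of 1 unit therefore cannot be assumed to hold in that setting. Among all genes tested, 29.9% had an interval within 0.5 units, and among the 935 genes whose mean level lay between the chain's own quartiles, 49.0%. The spread was small as well: the SD over the 7 arrays had a median of 0.17 in the chain, 0.19 in those equally bright genes and 0.25 in all genes tested. These shares are descriptions and were not tested.

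**Figure D1:**
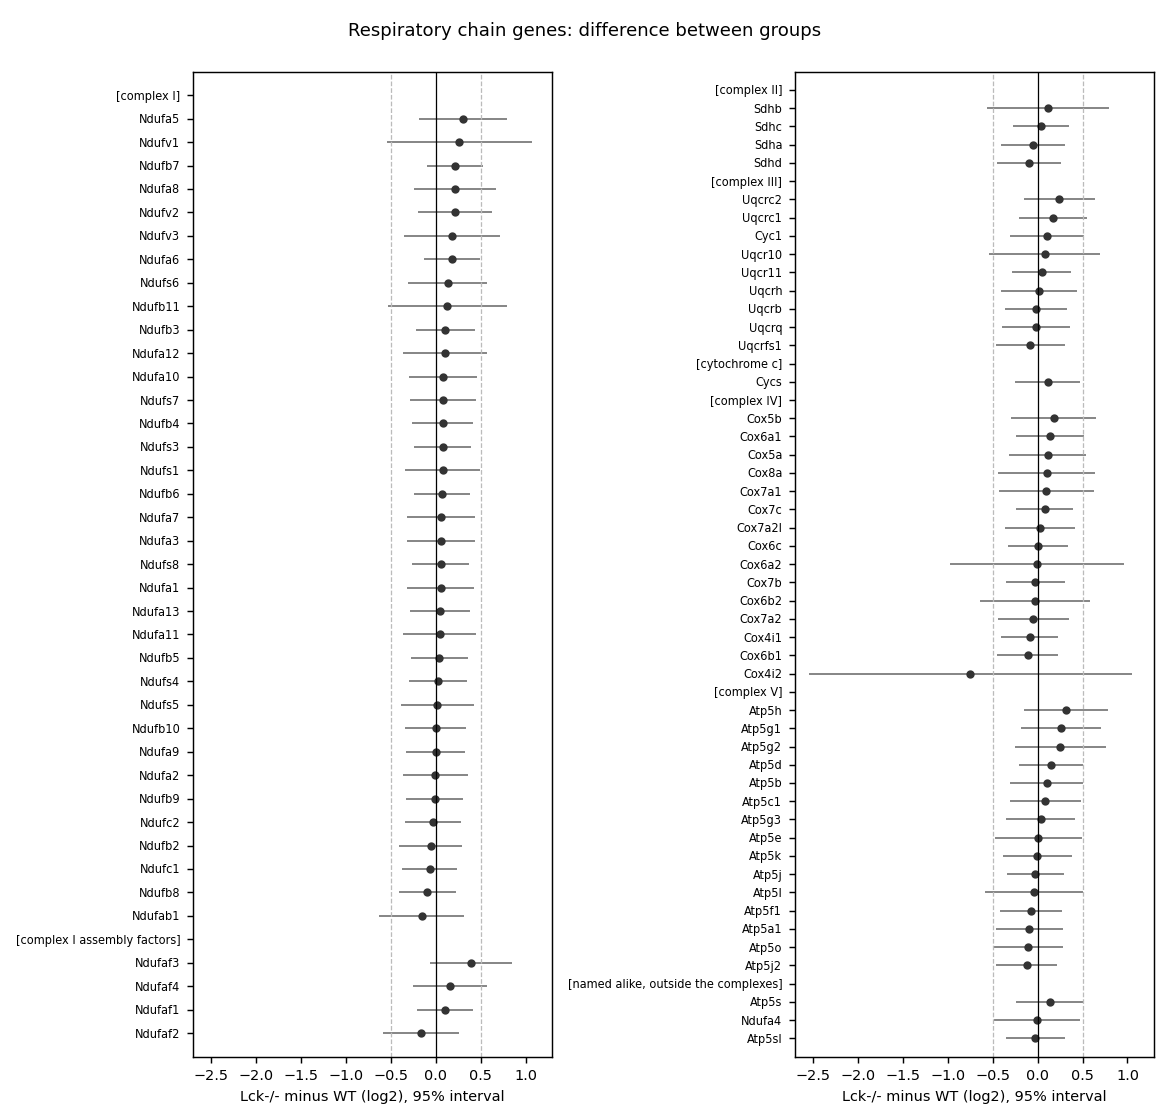
Difference between the Lck-/- and WT arrays (log2, horizontal axis) for the respiratory chain genes tested, 1 of the 87 not shown, grouped by complex, with points for the difference and bars for its 95% interval, dashed lines at 0.5 on either side of 0. Every interval shown crosses 0, and most lie between the dashed lines.

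Complex I, the NADH dehydrogenase, had 36 subunit genes, all of them tested. The differences were positive for 27 and negative for 9 (18 and 18 with quantile normalization, 6 and 30 with median centring, and 20 and 16 without Lck-/- array 1), with a median of 0.06 and a range from -0.16 to 0.31, and none had an unadjusted p below 0.05. Its 7 core subunits carry the flavin and the iron-sulfur clusters that electrons pass along. Ndufv1, which binds NADH and the flavin, had 7.95, 6.79 and 6.60 on Lck-/- arrays 1 to 3, against 6.95, 6.62, 7.30 and 6.55 on WT arrays 1 to 4. A single Lck-/- array was high and the other two lay inside the WT range, which gave a difference of 0.26 ± 0.34 (SE) and the widest interval of the complex, -0.54 to 1.06. Without that array the difference was -0.16.

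Other core subunits had narrower intervals. Ndufv2, an iron-sulfur subunit of the same module, differed by 0.21 ± 0.17 (SE) and by 0.06 without Lck-/- array 1. Ndufs1, Ndufs3, Ndufs7 and Ndufs8 differed by 0.08, 0.08, 0.08 and 0.06, and without that array by -0.01, 0.03, -0.00 and 0.11.

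Among the 29 accessory subunits, 21 differences were positive and 8 negative, with a median of 0.06. Ndufa6, a subunit of the peripheral arm, had 5.16, 5.32 and 5.20 on the Lck-/- arrays, against 5.06, 5.11, 4.89 and 5.13 on the WT arrays. All Lck-/- values lay above all WT values, by as little as 0.02, and the difference was 0.18 ± 0.13 (SE) with an adjusted p of 0.844 in limma. Ndufb7, of the membrane arm, had 7.15, 7.09 and 6.93 on the Lck-/- arrays, against 6.96, 6.77, 6.77 and 6.86 on the WT arrays. The groups overlapped by 1 WT array, at a difference of 0.22 ± 0.13 (SE) and an adjusted p of 0.795. Ndufa5, with the largest difference of the complex at 0.31 ± 0.21 (SE), again rested on Lck-/- array 1: 7.25, 6.53 and 6.61 on the Lck-/- arrays, against 6.55, 6.62, 6.23 and 6.54 on the WT arrays. Without that array it was 0.08. In this group Ndufs5 had a value on 2 Lck-/- and 3 WT arrays, Ndufa12 on 2 Lck-/- arrays and Ndufb11 on 3 WT arrays, since outlier spots were left out, and their differences were 0.02, 0.10 and 0.13.

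The 4 complex I assembly factors that carry the Nduf name differed by a median of 0.13. Ndufaf3, which acts early in building the complex, had the smallest p of the whole chain, and it is singled out here after its values were seen. It read 1.26, 1.69 and 1.78 on the Lck-/- arrays, against 1.06, 1.42, 0.92 and 1.34 on the WT arrays. The Lck-/- values were higher on average and overlapped those of WT, and the difference was 0.39 ± 0.19 (SE) with an unadjusted p of 0.0758 and an adjusted p of 0.743 in limma. Ndufaf4, Ndufaf1 and Ndufaf2 differed by 0.16, 0.10 and -0.16. Ndufa4, which carries a complex I name and is now placed with complex IV, differed by -0.01 ± 0.20 (SE). Its relative Ndufa4l2, induced by low oxygen, was well above background on 1 array of each group.

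Complex II, succinate dehydrogenase, is the link to the citric acid cycle and is encoded wholly in the nucleus. Its 4 subunits had a median difference of -0.01, with 2 positive and 2 negative. Sdha, the flavin subunit that oxidises succinate, read 5.28, 5.27 and 5.20 on the Lck-/- arrays, against 5.42, 5.46, 5.01 and 5.30 on the WT arrays. The Lck-/- values lay inside the WT range, at a difference of -0.05 ± 0.15 (SE). The membrane anchors Sdhc and Sdhd differed by 0.04 ± 0.13 and -0.10 ± 0.15 (SE). Sdhb, the iron-sulfur subunit, was the uneven one, with 7.72, 6.69 and 6.55 on the Lck-/- arrays, against 6.95, 6.95, 7.01 and 6.57 on the WT arrays. Lck-/- array 1 stood above every other array while Lck-/- arrays 2 and 3 lay with WT 4 below the other WT arrays. The difference was 0.12 ± 0.29 (SE) over all arrays and -0.35 ± 0.17 (SE) without the arrays labelled Lck-/- 1 and WT 4, with an adjusted p of 0.584 in limma for the second.

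Complex III, the cytochrome bc1 complex, had 9 genes tested, 6 with positive and 3 with negative differences and a median of 0.05. Uqcrc2, a core protein of its matrix face, was measured by 1 probe in 10 spots on each array, of which 9 or 10 were kept, and the SD among those spots ran from 0.02 to 0.09. It read 6.70, 6.49 and 6.17 on the Lck-/- arrays, against 6.32, 6.22, 6.04 and 6.26 on the WT arrays. The 2 highest arrays were Lck-/- and the remaining Lck-/- array lay inside the WT range, at a difference of 0.24 ± 0.16 (SE). Its adjusted p was 0.823 in limma. Uqcrc1, the partner core protein, differed by 0.17 ± 0.16 (SE), Cyc1, the cytochrome c1 haem protein, by 0.11 ± 0.17 (SE) and Uqcrfs1, the Rieske iron-sulfur protein, by -0.08 ± 0.16 (SE). Without Lck-/- array 1 the difference was 0.12 for Uqcrc2, 0.03 for Uqcrc1 and -0.01 for Cyc1. The 5 small supernumerary subunits differed by -0.02 to 0.08.

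Cycs, the mobile cytochrome c between complexes III and IV, read 7.23, 6.99 and 6.89 on the Lck-/- arrays, against 7.09, 6.82, 6.77 and 7.02 on the WT arrays. The 2 groups overlapped, and the difference was 0.11 ± 0.15 (SE), or 0.01 without Lck-/- array 1.

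Complex IV, cytochrome c oxidase, had 15 of its 18 listed genes in the test, with 8 positive and 7 negative differences and a median of 0.00. The 10 common subunits, present in most tissues, differed by -0.11 to 0.18. Cox5b, which binds zinc on the matrix side, read 7.43, 6.73 and 6.76 on the Lck-/- arrays, against 6.77, 6.75, 6.97 and 6.68 on the WT arrays. Lck-/- array 1 was high and the others lay together, at a difference of 0.18 ± 0.20 (SE), or -0.05 without that array. Cox6a1, a common isoform of a regulatory subunit, differed by 0.14 ± 0.16 (SE), Cox5a by 0.11 ± 0.18 (SE), Cox8a by 0.10 ± 0.23 (SE), and Cox7a2 by -0.05 ± 0.17 (SE). Without Lck-/- array 1 the difference was 0.01 for Cox6a1, -0.06 for Cox5a and -0.15 for Cox8a. Cox4i1, the common isoform of a subunit through which ATP inhibits the enzyme, read 7.28, 7.51 and 7.28 on the Lck-/- arrays, against 7.51, 7.51, 7.42 and 7.34 on the WT arrays. These values span less than 0.25 units over all 7 arrays, and the difference was -0.09 ± 0.13 (SE). Cox7a2l, which joins complexes III and IV into supercomplexes, differed by 0.03 ± 0.16 (SE).

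The isoforms of complex IV restricted to particular tissues were present only in part. Cox8b of heart and muscle, Cox8c and Cox7b2 were not well above background on any of the 7 arrays. Cox4i2, Cox6a2, Cox6b2 and Cox7a1 were well above it on all 7, and these 4 had 3 negative differences and 1 positive. Cox4i2, the isoform of lung that is also raised by low oxygen, read -1.05, -1.30 and -0.73 on the Lck-/- arrays, against -1.32, -0.93, 2.12 and -0.98 on the WT arrays. A single array, WT 3, stood more than 2 units above all others, and the remaining WT arrays lay among the Lck-/- arrays, at a difference of -0.75 ± 0.77 (SE). Without WT 3 the difference was 0.05 ± 0.20 (SE). WT 3 also had the most outlier-marked spots, 1549 against 166 to 557 on the others, though the Cox4i2 spot was not marked. The part of this in the result was not tested. Cox6a2, the isoform of heart and skeletal muscle, read 2.47, 1.12 and 1.95 on the Lck-/- arrays, against 2.10, 1.91, 2.44 and 0.96 on the WT arrays. The lowest values were those of Lck-/- 2 and WT 4, 1 of each group, and the difference was -0.00 ± 0.41 (SE). Without the arrays labelled Lck-/- 1 and WT 4 it was -0.62 ± 0.30 (SE), with an adjusted p of 0.577 in limma. Cox7a1, of muscle, differed by 0.10 ± 0.22 (SE), and Cox6b2, of testis, by -0.03 ± 0.26 (SE).

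**Figure D2:**
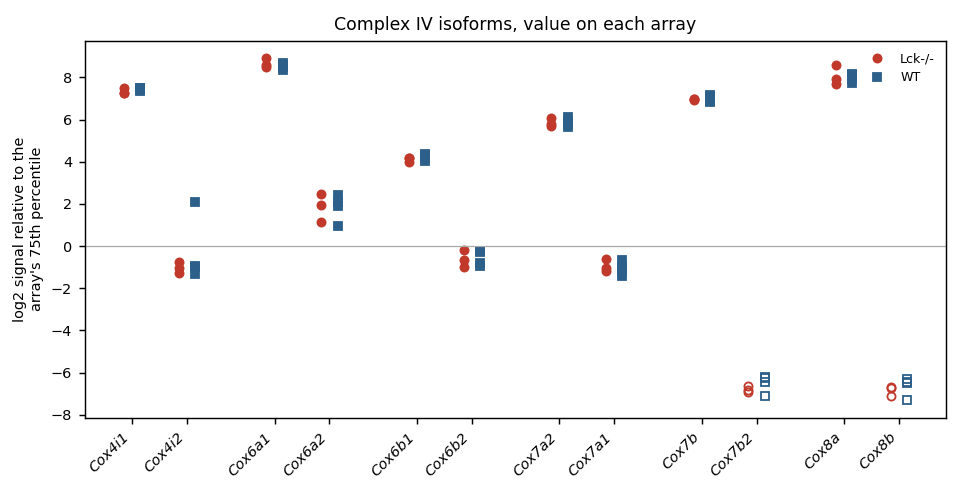
Level of 6 complex IV subunits and their tissue-restricted isoforms on each array (log2 signal relative to the array's 75th percentile), Lck-/- arrays as circles left of WT arrays as squares, filled where the probe was well above background on at least 1 array and open where on none. Heights of different genes come from different probes and are not to be compared; Cox4i2 has 1 WT array at 2.12 and 6 arrays between -1.32 and -0.73.

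Complex V, the ATP synthase, had 15 genes tested, 8 positive and 7 negative, with a median of 0.01. In the catalytic F1 part, Atp5b, the beta subunit that holds the catalytic sites, read 9.41, 8.81 and 8.92 on the Lck-/- arrays, against 8.97, 8.97, 8.99 and 8.85 on the WT arrays. Lck-/- array 1 was the highest, Lck-/- array 2 the lowest and Lck-/- array 3 inside the WT range, and the difference was 0.10 ± 0.17 (SE). The alpha subunit Atp5a1 differed by -0.09 ± 0.16 (SE) and the central stalk subunit Atp5c1 by 0.09 ± 0.16 (SE). Without Lck-/- array 1 the difference was -0.08 for Atp5b and -0.07 for Atp5c1.

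The c-ring, the rotor that protons turn, is encoded by 3 genes for the same mature protein, and these differed by 0.26 ± 0.19 for Atp5g1, 0.26 ± 0.22 for Atp5g2 and 0.03 ± 0.16 for Atp5g3 (SE). Atp5g2 read 9.21, 8.48 and 8.43 on the Lck-/- arrays, against 8.44, 8.37, 8.66 and 8.33 on the WT arrays. Under each of the 4 other scalings 1 of the 3 was negative. For Atp5g2 only Lck-/- array 1 lay above the WT range, and without it the differences were 0.05 for Atp5g1 and 0.00 for Atp5g2. The 7 genes of the outer stalk and membrane part had 6 negative differences and 1 positive, with a median of -0.04, and this split of 6 and 1 stood under the 4 other scalings as well. Without Lck-/- array 1 it was 5 and 2. The positive one, Atp5h, a stalk subunit, had the largest difference of the complex at 0.32 ± 0.20 (SE), with 8.29, 7.54 and 7.64 on the Lck-/- arrays, against 7.43, 7.51, 7.60 and 7.50 on the WT arrays. Here too 1 array carried it, and without Lck-/- array 1 it was 0.08. Atp5k lacked its value on WT array 3. The genes named Atp5s and Atp5sl, which current annotation calls Dmac2l and Dmac2, lie outside the enzyme and differed by 0.14 and -0.02.

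With the 75th percentile scaling, the array labelled Lck-/- 1 recurred through all 5 complexes. Averaged over the genes of a complex and set relative to the WT mean, it stood at 0.19 in complex I, 0.13 in II, 0.22 in III, 0.16 in IV and 0.26 in V, the highest of the 7 arrays each time. Lck-/- arrays 2 and 3 stood at 0.08 and -0.07 in complex I and at -0.01 and -0.09 in complex V. It had the highest reading for 36 of the 83 genes with all values, or 43.4%, beside 20.0% of all genes tested. For 14 chain genes, or 16.9%, it exceeded the median of the other arrays by more than 0.5 units, a share near the 14.4% of all genes. This depended on the scaling. With quantile normalization it was the highest array for 16 chain genes, or 19.3%, beside 13.0% of all genes tested. It exceeded the others by more than 0.5 for 3, or 3.61%, beside 8.05%. In the authors' deposited values it was the highest for 23, or 27.7%, beside 15.6%. There it exceeded the others by more than 0.5 for 10, or 12.0%, beside 4.68%. Quantile normalization also made it the lowest array for 25 genes, or 30.1%, beside 18.1%. Median centring turned the direction: it was then the lowest array for 60 of the 83 genes, or 72.3%, and the highest for 5, and lay more than 0.5 below the others for 28. Over all genes tested it was the lowest for 62.7% with median centring and the highest for 2.97%. It then lay more than 0.5 below the others for 7051 of 14148 genes. WT array 3 was the lowest for 43 of the 83 genes, or 51.8%, beside 35.5% of all genes. This too depended on the scaling. With quantile normalization WT array 3 was the lowest for 30 chain genes, or 36.1%, beside 29.5%. In the deposited values it was the lowest for 18, or 21.7%, beside 13.6%, and with median centring for 5, or 6.02%, beside 6.97%.

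**Figure D3:**
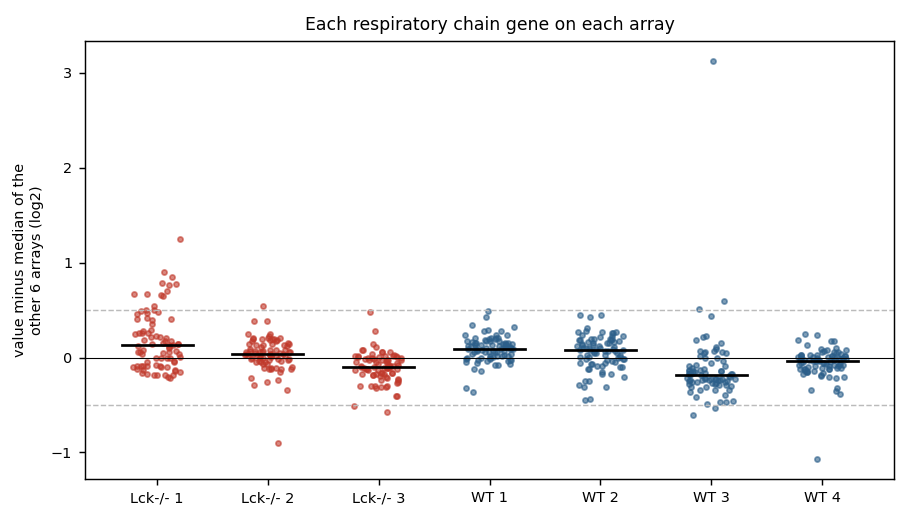
Each of the 83 respiratory chain genes with a value on all arrays, as its reading on one array minus the median of the other 6 (log2), one column of points per array with the Lck-/- arrays left of the WT arrays, black bars for the median and dashed lines at 0.5 on either side of 0. On Lck-/- 1, 14 genes lie above 0.5; the single point far above the rest is Cox4i2 on WT 3.

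The excess on Lck-/- array 1 did not extend to every probe of a gene. The first Sdhb probe read 7.72 on that array, against 6.55 to 7.01 on the other 6, and the second probe, whose sequence is printed beside it above, read 5.31, within the 4.73 to 5.37 of the others. The first Ndufa5 probe read 7.25, against 6.23 to 6.62, and the second 4.75, within 4.47 to 4.95. Of the 3 Uqcr10 probes, the first, at 7.90 against 6.87 to 7.32, and the second, at 7.41 against 6.42 to 6.79, share 53 of their bases and cannot count as separate evidence, and the remaining probe read 4.73, within 4.71 to 5.10. In each of these genes the probe without the excess lay upstream of the probe with it along the transcribed strand. These genes were picked because their probes disagreed on this array, and a tie to probe position was not tested. For Cox8a both probes, which do not overlap, were high on this array, at 8.59 against 7.71 to 8.14 and at 8.08 against 7.14 to 7.59, and both Atp5g2 probes behaved in that way too.

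Without Lck-/- array 1 the chain's median difference was -0.01, and without both arrays that went against their labels it was -0.02, beside 0.05 over all genes tested. Under the second setting 57 of all genes tested were called and 1611, or 10.8%, had an unadjusted p below 0.05, but no chain gene was called and 1 of 87, Ndufaf3, had an unadjusted p below 0.05. For Ndufaf3 the difference was then 0.60 ± 0.22 (SE), with an unadjusted p of 0.0302 and an adjusted p of 0.366 in limma.

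Of the 91 chain genes, 31 had more than 1 probe that passed the background filter. The probes of a gene gave differences that lay within 0.35 of each other for 30 of them, and with values this close to 0 the sign agreed for 15 genes and not for 16. The exception was Ndufb5, whose 4 probes ran from -0.19 to 0.94, the last from a dim probe well above background on 5 of the 7 arrays. A second probe that the files name Cox5b, placed on chromosome 15 and not with the first on chromosome 1, differed by 0.18 as the first did. Of the 3 probes for Atp5k, 2 are placed on chromosome Y by the files and the one used here on chromosome 5.

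Genes that build the chain or set its amount, listed apart from the naming rule, were tested in the same fit. Of 38 assembly factors tested outside the Nduf names, 23 differences were positive and 15 negative with a median of 0.03. Only 1 of the 38 had an unadjusted p below 0.05, beside 7.08% of all genes tested. That gene was Lyrm7, known in human cells to chaperone the Rieske protein, at 0.64 ± 0.27 (SE) and an adjusted p of 0.697 in limma. It read -1.91, -1.63 and -2.11 on the Lck-/- arrays, against -2.73, -3.11, -2.21 and -2.07 on the WT arrays, so that the groups overlapped. Lrpprc, which stabilises mitochondrial mRNAs, had 5.35, 5.45 and 5.37 on the Lck-/- arrays, against 5.25, 5.18, 4.92 and 5.24 on the WT arrays, with no overlap, a difference of 0.24 ± 0.14 (SE) and an adjusted p of 0.781. Of 16 regulators of mitochondrial biogenesis tested, 6 differences were positive and 10 negative with a median of -0.03, and none had an unadjusted p below 0.05. The coactivator Ppargc1b differed by 0.23 ± 0.15 (SE), and the ETS factor Gabpa by -0.21 ± 0.14 (SE), without overlap between the groups for Gabpa. Lrpprc and Gabpa were the only genes without overlap, 1 in each list, beside 7.01% of all genes with 7 values.

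The promoters of these genes are known for sites of the nuclear respiratory factor NRF1, of ETS factors such as GABPA and of YY1, so their letters were searched on both strands from 250 bases before to 50 bases after the gene start. RefSeq promoters of GRCm38.p6 were found for 73 of the 87 genes. The NRF1 letters, GCGC, any base and then TGCGC, stood in 18 of them, or 24.7%, against 5.19% of 27025 genes with a promoter. The ETS letters CCGGAAG stood in 17, or 23.3%, against 9.93%, and the YY1 letters AAGATGGC in 11, or 15.1%, against 3.19%. No matches of different motifs overlapped. The median difference between Lck-/- and WT was 0.11 over the 18 genes with the NRF1 letters and 0.06 over the 55 without. For the ETS letters it was 0.06 over 17 genes and 0.07 over 56, and for the YY1 letters -0.02 over 11 genes and 0.08 over 62. These medians use all arrays and the percentile scaling, and were not taken without Lck-/- array 1. Genes with the NRF1 letters and a value on every array shifted without it. The difference fell for Atp5c1, Atp5g2, Atp5g3, Atp5h, Atp5o, Cox6a1, Ndufa5, Ndufa8, Ndufb4, Ndufs6, Sdha and Uqcrc1. It rose for Ndufa6, Ndufa11, Ndufaf4 and Sdhd. For Atp5g2 it went from 0.26 to 0.00 and for Ndufaf4 from 0.16 to 0.22. A tie between letters and difference was not tested. The promoter of Ndufa6, the gene whose groups did not overlap, is shown with its NRF1 letters in capitals, and that of Sdha, with 3 such matches, beside it.
Ndufa6 promoter, chr15:82354242-82354541, minus strand: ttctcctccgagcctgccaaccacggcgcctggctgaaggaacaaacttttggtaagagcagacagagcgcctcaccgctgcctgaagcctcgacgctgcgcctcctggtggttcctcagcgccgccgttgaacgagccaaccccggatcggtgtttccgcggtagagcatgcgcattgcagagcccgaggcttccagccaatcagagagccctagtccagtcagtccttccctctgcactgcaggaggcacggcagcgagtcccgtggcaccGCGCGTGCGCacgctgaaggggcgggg
Sdha promoter, chr13:74350191-74350490, minus strand: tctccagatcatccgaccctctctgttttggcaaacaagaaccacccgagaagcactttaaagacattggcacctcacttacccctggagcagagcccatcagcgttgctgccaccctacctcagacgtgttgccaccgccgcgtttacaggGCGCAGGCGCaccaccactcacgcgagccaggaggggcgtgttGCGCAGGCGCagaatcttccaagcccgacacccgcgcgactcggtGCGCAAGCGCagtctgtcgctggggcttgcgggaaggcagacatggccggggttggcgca

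The values of the chain stood beside wider differences in other lists, none of which had a gene past the adjusted threshold. All 22 tested genes of G2 and mitosis had negative differences, with a median of -1.08, and 16 of them had an unadjusted p below 0.05, where 2.16% of all genes were lower at that level. Their mean relative to WT was -0.53, -1.43 and -1.49 on the Lck-/- arrays, against 0.85, -0.60, 0.43 and -0.68 on the WT arrays, so Lck-/- array 1 lay within WT. Aurka, a mitotic kinase, differed by -1.25 ± 0.38 (SE) and Ube2c, which helps to degrade cyclins, by -1.76 ± 0.59 (SE), with adjusted p of 0.610 and 0.633 in limma.

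**Figure D4:**
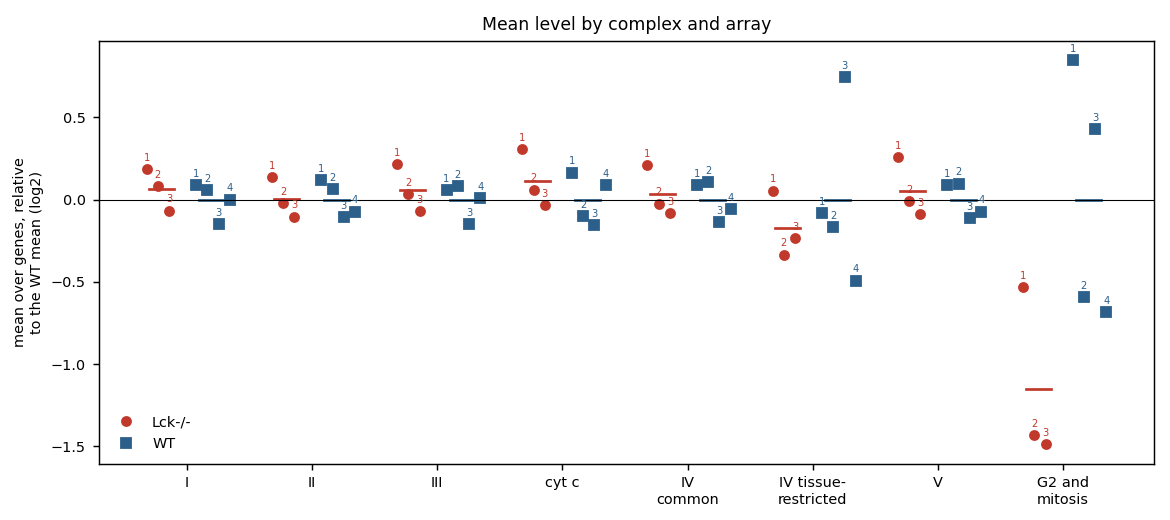
Mean over the genes of each complex on each array, relative to the mean of the WT arrays (log2), with G2 and mitosis genes at the right, Lck-/- as circles left of WT as squares, numbered by array, with bars for the group means. Complexes I, II, III and V, cytochrome c and the common subunits of complex IV stay between -0.15 and 0.31, the tissue-restricted subunits of complex IV reach 0.74 on WT 3, and the mitosis genes span -1.49 to 0.85.

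CD8 T cell markers were well above background on all arrays, 8 of 8, with positive differences for all 8 and a median of 0.38. Thy1 and Lat, a surface glycoprotein and an adaptor of the receptor, differed by 0.58 ± 0.17 and 0.59 ± 0.21 (SE), with adjusted p of 0.610 and 0.657. Natural killer cell markers were positive for 11 of 11, with a median of 0.95, and Klra7 and Klra8, receptors of those cells, differed by 1.78 ± 0.95 and 1.56 ± 0.86 (SE). All 11 markers were well above background on each Lck-/- array, against 7, 7, 10 and 11 on WT arrays 1 to 4. The Lck-/- arrays alone thus met the background filter, and some WT values were not well above background. Their shared sign is therefore only a description. The summed level of these markers was 1.98, 3.65 and 2.42 on the Lck-/- arrays, against 1.47, 2.10, 0.81 and 3.13 on the WT arrays, highest on the same 2 arrays, Lck-/- 2 and WT 4, that were lowest for Cox6a2. B cell markers were well above background for 4 to 5 of 8 on the Lck-/- arrays and 3 to 4 of 8 on the WT arrays, with a median difference of 0.50 over the 4 tested. The defining Ms4a1 and Pax5 did not pass the background filter, and Cd79b and Cd22 differed by 0.53 and 0.34. Dendritic cell and macrophage markers were above it for 9 of 11 on the Lck-/- arrays and 6 to 8 on the WT arrays. The 9 tested had 8 positive differences and 1 negative, from -0.10 to 0.80 with a median of 0.22. Cd68 and Adgre1 differed by 0.51 and 0.71. For this list and that of B cells the Lck-/- arrays alone could also meet the filter, so their signs are only a description. The summed levels of those 2 lists ran from 1.03 to 1.40 on Lck-/- arrays and 0.30 to 1.04 on WT arrays for B cells, and from 7.46 to 8.13 and 7.28 to 7.72 for dendritic cells and macrophages. In RNA from such a culture fewer cells of a type and less RNA per cell cannot be told apart, and the part of other cells in the values of the chain was not tested.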

How the data were processed

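Per the file headers, the authors extracted spot intensity with Agilent Feature Extraction 10.7.3.1, and no scaling between arrays was applied to these files. The authors' deposited value table, in log2 units, has an unstated between-array normalization. Its column medians ran from 6.57 to 6.61, and it was used only as an alternative. The submitters' processing notes name limma. All arrays shared 1 slide and 1 scan.

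From the processed intensity, log2 was taken and each array's 75th percentile over non-control spots subtracted. Spots marked as outliers were left out and spots of a probe averaged. A probe entered when well above background on at least 3 of 7 arrays, and a gene was its probe with the highest mean. Names came from the files' accession or symbol through the RefSeq table of GRCm38.p6, which gave names only. Of 55681 probes, 27235 were named by accession, 3568 by symbol, 564 by synonym and 1817 as in the file. Lck-/- was compared with WT in limma 3.58.1 under R 4.3.3 (lmFit and eBayes, two-sided), with Benjamini-Hochberg adjustment over all 14848 genes, and checked on simulated data. The number of arrays limits the precision, and a p-value sets the group difference against the spread between these samples within the groups.

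The members, the lists of assembly factors, regulators, mitosis genes and cell markers, and the tests were chosen with earlier results of these data known. Named genes were the core subunits and the listed isoforms, the 3 smallest p-values of each complex, and 2 of each other list. 1 core subunit and 1 cell marker are not reported here by name, though they stay in the counts. A gene outside this rule was chosen after its values were seen. The samples were treated as unpaired. Within-group deviations of arrays with the same title number correlated at 0.10, 0.06 and -0.03. By the number in the file name the correlations were 0.10, -0.42 and 0.16. So few pairs cannot show whether the samples were paired. With the title number as a block, 10.5% of all genes tested had an unadjusted p below 0.05 in limma, against 7.08% without it. Alternatives were normexp (offset 50), quantile normalization, median centring, the deposited table, 2 background filters, other probe summaries, 3 blocks, array weights, a robust trend, and leaving out arrays.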

Additional observations from a re-analysis of the deposited data

Results flagged for a closer look

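Values of 3 genes were marked because 1 of the 4 WT arrays lay far from the other 3, by the ratio of its gap to the group's whole range against Dixon's 95% critical value. With 42 groups examined, chance marks about 1 in 20. Cox4i2 had a ratio of 0.888, with WT 3 at 2.12 against -1.32 to -0.93 on the other WT arrays. Sdhb had a ratio of 0.866, with WT 4 at 6.57 against 6.95 to 7.01, and Atp5b had a ratio of 0.855, with WT 4 at 8.85 against 8.97 to 8.99. The groups of 3 Lck-/- arrays were not examined by this rule. WT 4 is an array whose Lck signal went against its label.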

How the results depend on the processing

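No chain gene was called under any of the 21 alternatives run. The count of chain genes at an unadjusted p below 0.05 was 1, Ndufaf3, under normexp, the deposited table, array weights and without both arrays labelled Lck-/- 1 and WT 4, and ran from 0 to 1 when single arrays were left out, with 1 without Lck-/- 1. Median centring moved the median of all genes tested from 0.04 to -0.16, and with it those of the chain to -0.15, complex I to -0.14, II to -0.21, III to -0.16, IV to -0.20 and V to -0.19. The other settings held the chain's median between -0.02 and 0.07, and leaving out single arrays between -0.01 and 0.10. Of the 37 named chain genes, 19 changed sign under median centring, 12 without Lck-/- 1, 11 without both arrays, and 10 under quantile normalization. Among all genes tested, 1 was called with the title number or the file number as a replicate block, 0 to 1 when single arrays were left out (1 without WT 1), and 57 without both arrays, and the cause was not tested. Neither block changed the call of a chain gene. Probes near background and 3 against 4 arrays limit what could be seen.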
